A study of Mus musculus with 20 samples.

Results

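The genes described here are 41 genes of protein folding in the endoplasmic reticulum (ER) and of the unfolded protein response, chosen by gene name. They stand among 55385 gene rows measured in mouse liver RNA at the time label week 24. The 41 names matched 42 rows, because Ddit3 has a second, shorter row at the same place that held too few counts to be tested. All 41 genes passed the filter on low counts, so none is missing from the tests. By role they were 17 chaperones and folding enzymes, 8 genes of the translocon, 7 genes of ER-associated degradation (ERAD), 5 sensors and transcription factors, and 4 genes of the Atf4 arm. The libraries fell into 4 groups of 5: labelled LXRα-/- mice on a high-fat diet (HFD), labelled LXRα-/- mice on chow, wild-type (WT) mice on HFD and WT mice on chow. The titles give the genotype as LXRα-/- and another label calls the same animals a knockdown. LXRα is a nuclear receptor for oxysterols encoded by Nr1h3, and no tissue-specific driver, age, sex or strain was given in the labels.

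Secretory and membrane proteins enter the ER through the translocon and are folded there by chaperones such as BiP, the product of Hspa5. When unfolded proteins build up, the sensors IRE1 (Ern1), ATF6 and PERK (Eif2ak3) start the unfolded protein response. IRE1 splices Xbp1 mRNA into the form that encodes an active transcription factor, ATF6 is cut to release a factor, and both raise chaperone and ERAD genes. PERK slows translation while favouring that of Atf4, which drives amino acid and stress genes including Ddit3, encoding CHOP. The liver secretes most plasma proteins, and hepatocytes are known to depend on this machinery. Gene-level counts show neither Xbp1 splicing nor any protein change.

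Among the 41 genes, 34 had a promoter window in the RefSeq table of GRCm38.p6, which covers 250 bases before to 50 bases after a gene's start. Positions below count from that RefSeq start as 0, which for some genes, Hspa5 and Trib3 among them, differs from the gene start given with the counts. The windows were searched on both strands for 3 motifs. These were the ER stress response element (ERSE: CCAAT, 9 bases, CCACG), known as a site of ATF6 with NF-Y, the unfolded protein response element (UPRE: TGACGTGG) and the composite element that ATF4 is known to bind (TGATGNAA). The ERSE and the reverse of the UPRE share the letters CCACG, so that 1 site can count for both. The ERSE was found in 9 of the 34 genes (26.5%), against 37 of 27025 genes with a window (0.137%). It was present in 7 of 14 chaperone genes with a window and in 2 ERAD genes, and in no translocon, sensor or Atf4 arm gene. Its matches in these 9 genes are shown because 7 of the genes are chaperones, each match written in the direction in which CCAAT comes first, with the fixed bases in capitals.
Hspa5, chr2:34772025-34772043: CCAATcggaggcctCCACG
Hsp90b1 upstream match, chr10:86705638-86705656: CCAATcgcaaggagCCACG
Hsp90b1 downstream match, chr10:86705533-86705551: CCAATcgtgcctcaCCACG
Calr, chr8:84847075-84847093: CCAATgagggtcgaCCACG
Canx, chr11:50325800-50325818: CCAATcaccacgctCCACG
Pdia6, chr12:17266491-17266509: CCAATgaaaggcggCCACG
Dnajc3, chr14:118937827-118937845: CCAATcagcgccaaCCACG
Creld2, chr15:88819520-88819538: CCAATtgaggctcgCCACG
Derl3, chr10:75893242-75893260: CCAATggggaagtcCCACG
Syvn1, chr19:6046532-6046550: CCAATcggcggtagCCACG

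The matches lay between position -212, in Hsp90b1, and position -26, in Syvn1. The UPRE letters were in no window of these genes and in 0.714% of all genes. The ATF4 composite element was in Trib3 and Herpud1, and in 4.51% of all genes. The whole window of Hspa5 (plus strand) is given as the best known ERSE promoter, with the match at positions -65 to -47 in capitals. That of Trib3 (minus strand) is given as the Atf4 arm gene with an ATF4 element, read as TGATGTAA on the opposite strand at positions 14 to 21 and in capitals. A match describes the letters in the window and says nothing of binding.
Hspa5, chr2:34771840-34772139: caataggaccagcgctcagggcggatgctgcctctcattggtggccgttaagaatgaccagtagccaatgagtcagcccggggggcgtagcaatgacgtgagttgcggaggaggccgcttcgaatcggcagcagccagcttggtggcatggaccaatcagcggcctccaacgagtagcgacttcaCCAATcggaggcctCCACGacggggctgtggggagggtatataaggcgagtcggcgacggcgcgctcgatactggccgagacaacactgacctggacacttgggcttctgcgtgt
Trib3, chr2:152344011-152344310: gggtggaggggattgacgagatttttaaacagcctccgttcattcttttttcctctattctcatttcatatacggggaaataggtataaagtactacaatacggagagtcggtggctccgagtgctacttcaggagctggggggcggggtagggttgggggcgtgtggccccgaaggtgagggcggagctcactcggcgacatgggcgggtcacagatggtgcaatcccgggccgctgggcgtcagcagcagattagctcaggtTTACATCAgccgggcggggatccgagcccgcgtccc

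Before the genes are described, 3 properties of the libraries need stating. Each library held 75549139 to 108889938 counts. Nr1h3, the gene named in the genotype, was above every WT library in 8 of the 10 labelled LXRα-/- libraries and below every WT library in 2, library 2 on HFD and library 4 on chow. It had 10.3 to 77.2 FPKM (fragments per unit of gene length, relative to the library total) in labelled LXRα-/- HFD and 7.89 to 66.1 FPKM in labelled LXRα-/- chow, against 14.3 to 24.5 FPKM in WT HFD and 32.8 to 45.3 FPKM in WT chow. Every direction drawn from genotype therefore rests on the labels. WT chow also differed from the rest in RNA make-up. Mitochondrially encoded genes took 14.1% to 20.4% of the counts in labelled LXRα-/- HFD, 18.2% to 29.6% in labelled LXRα-/- chow and 9.77% to 19.3% in WT HFD, but 3.89% to 5.67% in WT chow. Every comparison with WT chow is thus also one of libraries with a different mitochondrial share, and the 2 cannot be told apart where the ranges do not overlap. The hepatocyte gene Alb (albumin) had 20659 to 81084 CPM (counts scaled to library size) over the 20 libraries. The protocol text speaks of an adipose RNA. Of 6 adipocyte genes, Adipoq and Plin1 did not exceed 8.57 and 5.06 CPM in any library, and Cfd and Cidec reached 317 and 53.7 CPM in labelled LXRα-/- HFD.

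In labelled LXRα-/- chow livers, set against WT chow livers, more of the 41 genes fell than rose. Of the 41 genes 21 fell, against a background of 21.0% of all 18905 genes tested, and 4 rose, against 22.3% (edgeR's quasi-likelihood test, Benjamini-Hochberg adjusted p under 0.05). The median log2 fold change of the 41 genes was -0.85, and that of all tested genes 0.08. By role, 10 of 17 chaperones and folding enzymes fell and none rose, 5 of 7 ERAD genes fell, and 4 of 5 sensors and factors fell. In the translocon 2 of 8 genes fell and 1 rose, while 3 of the 4 Atf4 arm genes rose and none fell. With the mitochondrial share as a covariate no member passed the threshold on chow, where 0.339% of all tested genes rose and 0.624% fell, and 23 of the 25 called genes kept their sign. In bulk RNA fewer cells of a type and less RNA per cell cannot be told apart.

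The chaperone and translocon genes were then set against the Atf4 arm within each library. A role's level in a library was taken as the median, over its genes, of log2 CPM relative to the mean of the 4 group means. The chaperone and translocon level ran from 0.16 to 1.27 in WT chow and overlapped with WT HFD, at -0.47 to 0.51. It ran from -0.46 to 0.08 in labelled LXRα-/- HFD and from -0.75 to 0.04 in labelled LXRα-/- chow. The translocon level alone overlapped between all groups. The Atf4 arm level ran from -0.79 to -0.21 in WT chow, below all other libraries, the lowest at -0.14 in labelled LXRα-/- HFD. The chaperone and translocon level minus the Atf4 arm level ran from -0.64 to 0.11 in labelled LXRα-/- HFD, from -0.94 to -0.07 in labelled LXRα-/- chow and from -0.57 to 0.30 in WT HFD. In WT chow it ran from 0.82 to 1.48. In this difference the 5 WT chow libraries thus lay above the other 15, whose 3 groups overlapped. The same contrast in the fitted values, the median log2 fold change of the 25 chaperone and translocon genes minus that of the 4 Atf4 arm genes, was -1.61 for labelled LXRα-/- against WT on chow and -0.13 for that pair on HFD. It was 0.32 for diet in labelled LXRα-/- and -1.2 for diet in WT. With the mitochondrial share as a covariate it was -0.81 for genotype on chow and -0.69 for diet in WT.

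**Figure D1:**
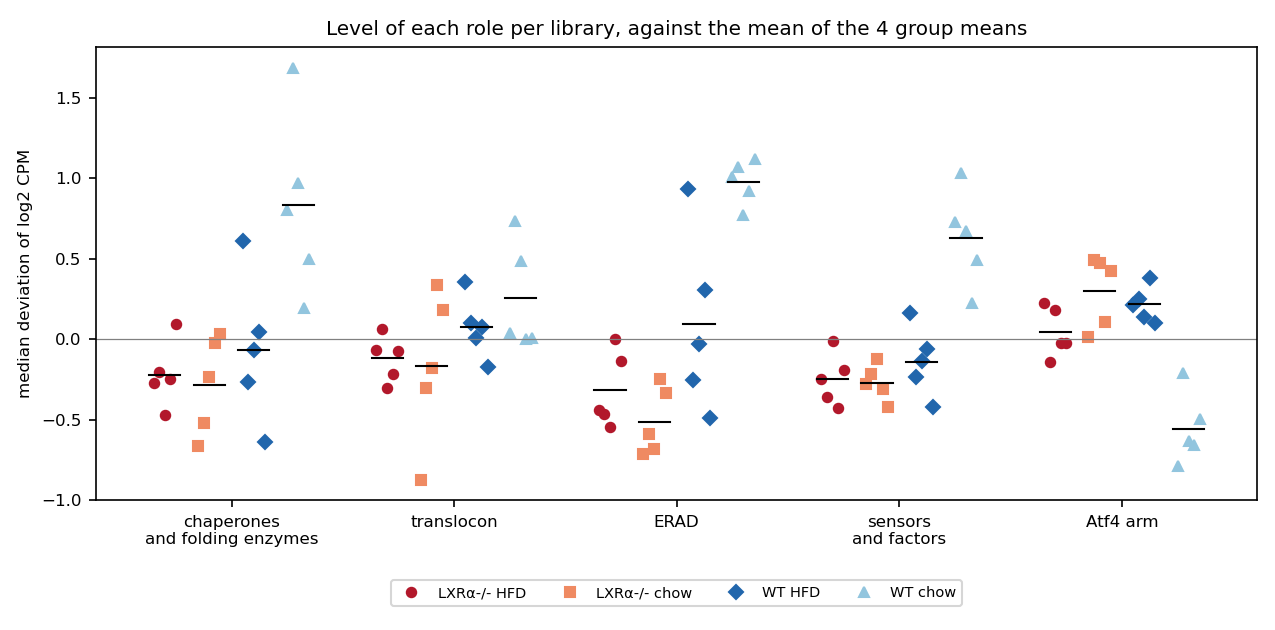
Level of each role in the 20 libraries, as the median over its genes of log2 CPM relative to the mean of the 4 group means; points are libraries of the 4 groups and lines are group means. The WT chow libraries lie at 0.77 to 1.12 for ERAD and at -0.79 to -0.21 for the Atf4 arm. WT HFD library 1, at 0.93, is the only other library within this ERAD range, and its Atf4 arm level of 0.21 is outside the other range.

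Among the chaperones, Hyou1, Pdia6, Canx, Dnajb11 and Dnajc3 are given by library because their genotype difference depended on diet in the test described further on. Hyou1 encodes GRP170, a large ER chaperone and nucleotide exchange factor of BiP. Hyou1 had 0.876, 0.636, 0.949, 1.59 and 5.47 FPKM in labelled LXRα-/- HFD, 1.29, 0.849, 1.90, 1.07 and 0.463 in labelled LXRα-/- chow and 3.05, 0.912, 1.99, 3.94 and 0.463 in WT HFD, against 6.13, 18.2, 10.5, 7.10 and 8.91 FPKM in WT chow. All libraries of the other 3 groups were below the WT chow libraries, and library 5 of labelled LXRα-/- HFD was the highest of those 15. On chow the log2 fold change of labelled LXRα-/- over WT was -3.22 (SE 0.64, edgeR adjusted p = 0.000455). Pdia6 encodes a disulfide isomerase that is also known to damp PERK and IRE1 signalling. Pdia6 had 22.2, 20.8, 14.8, 17.5 and 25.6 FPKM in labelled LXRα-/- HFD, 11.1, 14.4, 16.2, 14.1 and 12.7 in labelled LXRα-/- chow and 36.9, 14.2, 24.1, 16.9 and 9.71 in WT HFD, against 62.8, 88.9, 63.9, 45.0 and 53.2 FPKM in WT chow. The WT chow libraries were again above all others, and within WT HFD library 1 was the highest. Its log2 fold change on chow was -2.20 (SE 0.28, edgeR adjusted p = 5.7e-06).

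Canx encodes calnexin, the membrane lectin that holds newly made glycoproteins. Canx had 14.2, 15.6, 10.8, 12.3 and 13.1 FPKM in labelled LXRα-/- HFD, 7.68, 11.2, 12.1, 9.76 and 9.73 in labelled LXRα-/- chow and 15.5, 8.94, 14.3, 10.9 and 6.99 in WT HFD, against 32.9, 32.6, 27.3, 11.1 and 15.7 FPKM in WT chow. WT chow libraries 1, 2 and 3 were well above all others, library 5 of WT chow was level with the highest of them, and library 4 lay within their range. On chow the log2 fold change was -1.23 (SE 0.25, edgeR adjusted p = 0.000509). Dnajb11 (ERdj3) and Dnajc3 (p58IPK) are co-chaperones of BiP, and Dnajc3 is also known to inhibit PERK. Dnajb11 had 13.3, 12.9, 12.6, 12.4 and 16.3 FPKM in labelled LXRα-/- HFD, 5.29, 14.1, 12.7, 12.1 and 13.5 in labelled LXRα-/- chow and 19.5, 11.2, 15.2, 13.6 and 9.36 in WT HFD, against 31.5, 48.8, 31.0, 18.7 and 20.3 FPKM in WT chow. In labelled LXRα-/- chow library 1 was far below the rest, and WT chow library 2 was the highest of all. Dnajc3 had 11.5, 12.2, 9.05, 9.57 and 10.9 FPKM in labelled LXRα-/- HFD, 6.19, 10.0, 8.26, 8.06 and 9.23 in labelled LXRα-/- chow and 10.3, 6.84, 9.35, 6.96 and 6.34 in WT HFD, against 21.8, 27.7, 17.1, 7.84 and 9.89 FPKM in WT chow. Labelled LXRα-/- chow and WT chow overlapped for Dnajc3, because WT chow libraries 4 and 5 were low. The log2 fold changes on chow were -1.38 (SE 0.27) for Dnajb11 and -1.0 (SE 0.25) for Dnajc3, with edgeR adjusted p of 0.000401 and 0.00296.

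Hspa5 itself, the central ER chaperone, did not pass the threshold. Hspa5 had 7.09, 27.0, 25.4, 32.8 and 51.2 FPKM in labelled LXRα-/- HFD, 23.3, 7.26, 38.0, 29.3 and 21.1 in labelled LXRα-/- chow and 14.7, 7.93, 42.1, 34.2 and 2.09 in WT HFD, against 45.3, 126, 80.1, 14.7 and 38.7 FPKM in WT chow. Every group held both low and high libraries, with the lowest value of all in WT HFD library 5 and the highest in WT chow library 2, and all 4 groups overlapped. The log2 fold change was -1.32 (SE 0.66) for genotype on chow and -1.57 (SE 0.66) for diet in WT, with edgeR adjusted p of 0.112 and 0.0813. DESeq2 called the second, but not the first. The SD of log2 CPM within groups was 1.27 for Hspa5, 1.01 for Hyou1 and 1.59 for Derl3, the 3 largest of the 41, and the median over the 41 genes was 0.45, against 0.59 over all tested genes.

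The other chaperones called on chow were Sdf2l1, a BiP cofactor (log2 fold change -1.74), the disulfide isomerase Pdia4 (-1.40), Creld2, a secreted ER stress protein (-1.39), the neurotrophic ER factor Manf (-1.25) and P4hb, the main protein disulfide isomerase (-1.23). For all 5 the labelled LXRα-/- chow libraries were below every WT chow library. P4hb was among the most abundant of the 41 genes per length, at 168 to 462 FPKM in labelled LXRα-/- chow and 608 to 729 FPKM in WT chow. Calr (calreticulin), another abundant one, had 206 to 393 FPKM in labelled LXRα-/- chow and 332 to 539 FPKM in WT chow, with a log2 fold change of -0.42 (SE 0.22) that did not pass. Hsp90b1 (GRP94), Pdia3, Dnajb9, Dnajc10 and the nucleotide exchange factor Sil1 did not pass on chow, at log2 fold changes of -0.30, -0.61, -0.82, -0.19 and -0.40. Of the 9 genes with an ERSE shown above, 5 fell on chow (Canx, Pdia6, Dnajc3, Creld2 and Syvn1), and of the 25 genes with a window and no ERSE match 12 fell and 4 rose. Among all tested genes 21.0% fell and 22.3% rose, and the difference between genes with and without the ERSE was not tested.

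**Figure D2:**
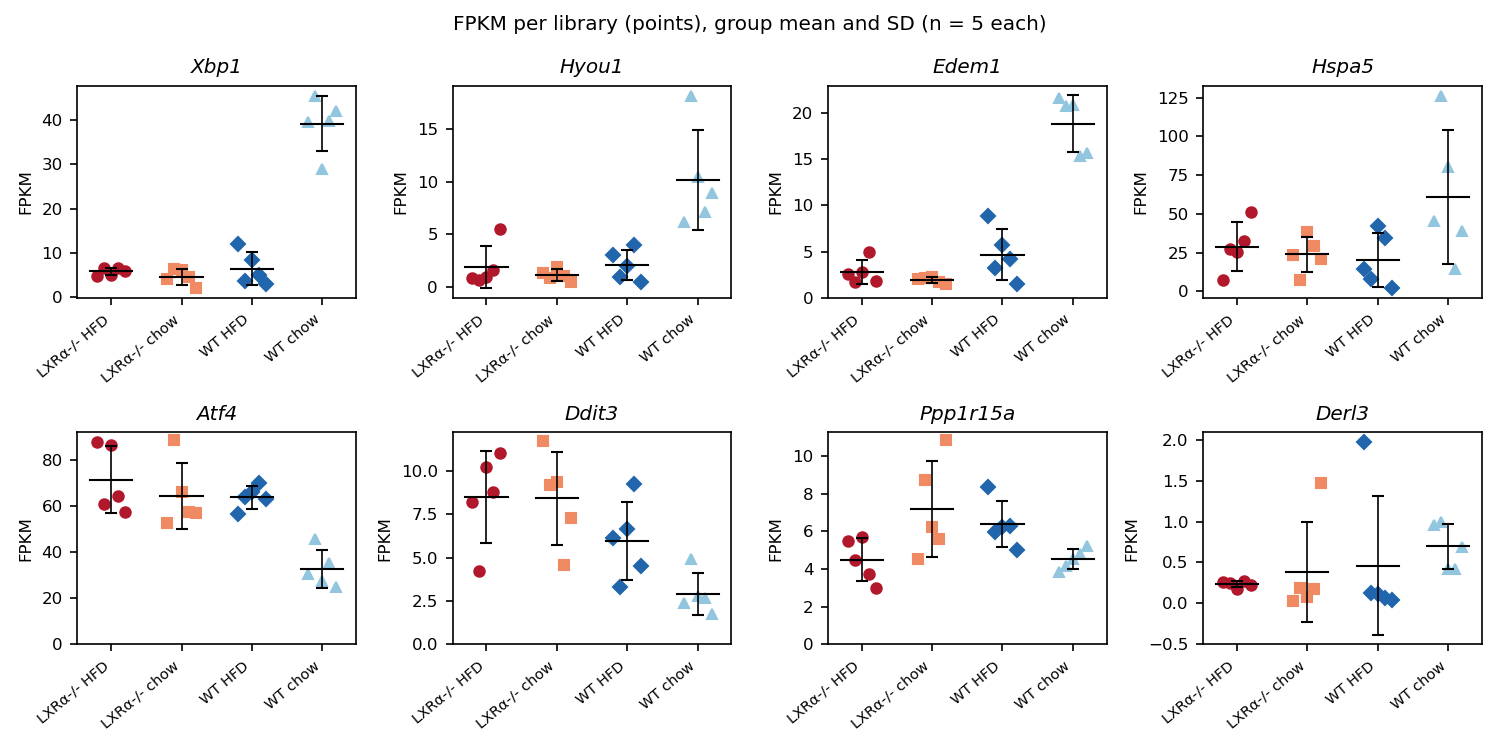
FPKM of 8 genes in each of the 20 libraries by group; points are libraries, and lines and bars are the group mean and SD (n = 5 each). Xbp1, Hyou1 and Edem1 are highest in all 5 WT chow libraries, with Xbp1 at 29.0 to 45.5, and Atf4 is lowest there, at 24.9 to 45.7.

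Of the 8 translocon genes 2 fell and 1 rose on chow, against 21.0% and 22.3% of all tested genes. Sec61a1 encodes the channel of the translocon and Sec61b one of its small subunits. Sec61a1 had 25.3, 25.6, 24.7, 22.8 and 24.7 FPKM in labelled LXRα-/- HFD, 13.4, 24.1, 20.6, 33.4 and 29.4 in labelled LXRα-/- chow and 31.8, 24.1, 24.8, 24.3 and 21.0 in WT HFD, against 26.0, 44.2, 34.3, 28.1 and 31.1 FPKM in WT chow. The groups overlapped, and the log2 fold change on chow was -0.44 (SE 0.22, edgeR adjusted p = 0.119). Sec61b had 31.2, 30.6, 11.2, 25.3 and 25.8 FPKM in labelled LXRα-/- HFD, 5.86, 13.9, 22.0, 25.1 and 16.8 in labelled LXRα-/- chow and 46.5, 24.6, 39.4, 29.9 and 20.8 in WT HFD, against 37.2, 44.0, 52.8, 36.0 and 40.9 FPKM in WT chow. All labelled LXRα-/- chow libraries were below those of WT chow, and library 3 was the lowest of labelled LXRα-/- HFD. The log2 fold change of Sec61b on chow was -1.33 (SE 0.33, edgeR adjusted p = 0.00295), and with the mitochondrial share as a covariate it was 0.45 and not called. Ssr1 to Ssr4 encode the TRAP complex beside the channel. Ssr1 rose on chow by 0.64 (SE 0.23, edgeR adjusted p = 0.0299) and Ssr4 fell by 0.51 on the log2 scale (SE 0.20, edgeR adjusted p = 0.0451). Ssr1 lost its call in 5 and Ssr4 in 13 of 20 repeats that each left out 1 library. Ssr2, Ssr3, Sec61g and Sec63 did not pass.

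Among the ERAD genes, Edem1 had 2.61, 1.68, 2.82, 4.95 and 1.79 FPKM in labelled LXRα-/- HFD, 2.07, 2.15, 2.25, 1.71 and 1.5 in labelled LXRα-/- chow and 8.87, 3.20, 5.69, 4.19 and 1.43 in WT HFD, against 21.6, 20.8, 20.8, 15.4 and 15.6 FPKM in WT chow. Edem1 encodes a lectin that hands misfolded glycoproteins to degradation. The WT chow libraries were above all 15 others, WT HFD library 1 came next, and the log2 fold change on chow was -3.30 (SE 0.37, edgeR adjusted p = 1.19e-06). Derl1 encodes derlin-1, a channel component of retrotranslocation. Derl1 had 22.8, 22.9, 17.1, 22.7 and 22.7 FPKM in labelled LXRα-/- HFD, 11.4, 18.8, 19.5, 19.4 and 16.7 in labelled LXRα-/- chow and 28.7, 22.6, 25.5, 20.1 and 21.2 in WT HFD, against 42.3, 42.9, 41.7, 40.3 and 40.3 FPKM in WT chow. The WT chow libraries lay close together and above all others, and Derl1 had the second smallest spread of the 41 genes, with an SD of 0.23 on the log2 scale. Its log2 fold change on chow was -1.29 (SE 0.16, edgeR adjusted p = 3.74e-06).

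Herpud1 encodes a scaffold of the HRD1 ubiquitin ligase. Herpud1 had 24.5, 13.2, 33.2, 41.6 and 49.4 FPKM in labelled LXRα-/- HFD, 22.4, 22.5, 53.4, 31.1 and 16.9 in labelled LXRα-/- chow and 48.6, 12.5, 22.1, 43.6 and 25.7 in WT HFD, against 82.2, 78.0, 66.0, 114 and 145 FPKM in WT chow. All libraries of the other groups were below WT chow, with overlapping ranges among them, and the log2 fold change on chow was -1.78 (SE 0.41, edgeR adjusted p = 0.00152). Sel1l, the partner of HRD1, had a log2 fold change of -1.66 and Syvn1, encoding HRD1 itself, one of -1.02 (edgeR adjusted p = 0.000242 and 0.0465). Syvn1 overlaps Mrpl49 on the opposite strand, and the strand setting of the counting is not given, so its counts are uncertain. Its call was lost in 13 of the 20 repeats. Derl2 and Derl3 did not pass on chow. Derl3 had 0.261, 0.244, 0.170, 0.278 and 0.221 FPKM in labelled LXRα-/- HFD, 0.0212, 0.182, 0.0771, 0.178 and 1.47 in labelled LXRα-/- chow and 1.97, 0.124, 0.113, 0.0594 and 0.0369 in WT HFD, against 0.956, 0.997, 0.418, 0.415 and 0.690 FPKM in WT chow. Derl3, at 4 to 457 counts per library, was low in 4 libraries each of labelled LXRα-/- chow and WT HFD and high in 1 of each. Without labelled LXRα-/- chow library 5 its log2 fold change on chow was -2.63 (edgeR adjusted p = 0.03), against -0.73 with all libraries. Derl3 is also abundant in plasma cells. Within WT HFD the plasma cell gene Igkc had 322 CPM in library 1, where Derl3 was highest, and 853 CPM in library 5, where Derl3 was lowest. Igkc was at 144 CPM in labelled LXRα-/- chow library 5 and at 7.14 to 15.1 CPM in WT chow. A plasma cell source of Derl3 was not tested.

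Xbp1 had the largest log2 fold change on chow among the 5 sensors and factors. Xbp1 had 4.85, 6.66, 4.88, 6.47 and 5.95 FPKM in labelled LXRα-/- HFD, 3.99, 6.38, 6.02, 4.41 and 2.0 in labelled LXRα-/- chow and 11.9, 3.68, 8.29, 5.06 and 3.01 in WT HFD, against 39.6, 45.5, 29.0, 39.9 and 42.0 FPKM in WT chow. No library outside WT chow exceeded 11.9 FPKM, and no WT chow library was under 29.0 FPKM. The log2 fold change of labelled LXRα-/- over WT on chow was -3.16 (SE 0.33, edgeR adjusted p = 7.27e-07). The 2 WT HFD libraries with the lowest mitochondrial shares, library 1 at 9.77% and library 3 at 11.8%, had the highest Xbp1 of that group. In labelled LXRα-/- HFD the library of lowest share, library 1 at 14.1%, had the lowest Xbp1. In labelled LXRα-/- chow the libraries of highest share, library 1 at 29.6% and library 5 at 23.7%, had the lowest Xbp1. In WT chow the library of highest share, library 3 at 5.67%, had the lowest Xbp1. In each group the library at the other end of the share had neither the highest nor the lowest Xbp1. These were library 2 of WT HFD (19.3%, 3.68 FPKM) and library 5 of labelled LXRα-/- HFD (20.4%, 5.95 FPKM). On chow they were library 3 of labelled LXRα-/- (18.2%, 6.02 FPKM) and library 4 of WT (3.89%, 39.9 FPKM). The relation of Xbp1 to the share within groups was not tested. Atf6 encodes the sensor that is cut in the Golgi. Atf6 had 2.57, 2.56, 2.17, 2.27 and 2.27 FPKM in labelled LXRα-/- HFD, 1.32, 2.24, 2.12, 1.73 and 2.28 in labelled LXRα-/- chow and 1.90, 1.68, 2.05, 1.5 and 1.55 in WT HFD, against 4.08, 4.58, 3.56, 2.31 and 2.99 FPKM in WT chow. WT chow was above the other groups except for library 4, which lay within labelled LXRα-/- HFD. Labelled LXRα-/- HFD lay above every WT HFD library in FPKM. By edgeR's quasi-likelihood test, however, Atf6 did not reach an unadjusted p under 0.05 for genotype on HFD. The log2 fold change of Atf6 on chow was -0.85 (SE 0.17, edgeR adjusted p = 0.000506).

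Eif2ak3 encodes PERK. Eif2ak3 had 0.828, 0.673, 1.10, 0.870 and 0.772 FPKM in labelled LXRα-/- HFD, 0.896, 0.857, 0.827, 0.560 and 0.472 in labelled LXRα-/- chow and 0.405, 0.692, 0.515, 0.730 and 0.634 in WT HFD, against 1.59, 2.54, 1.54, 0.658 and 0.879 FPKM in WT chow. WT chow libraries 1, 2 and 3 were above all others and libraries 4 and 5 were not, and the log2 fold change on chow was -1.0 (SE 0.28, edgeR adjusted p = 0.00603). Atf6b, a relative of Atf6, had a log2 fold change of -0.96 (SE 0.17, edgeR adjusted p = 0.000183). Ern1, the gene of IRE1, lay between 2.87 and 5.34 FPKM in all 20 libraries and had the smallest spread of the 41 genes, at 0.21. Its log2 fold change on chow was 0.09 (SE 0.15), with an edgeR adjusted p of 0.652.

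**Figure D3:**
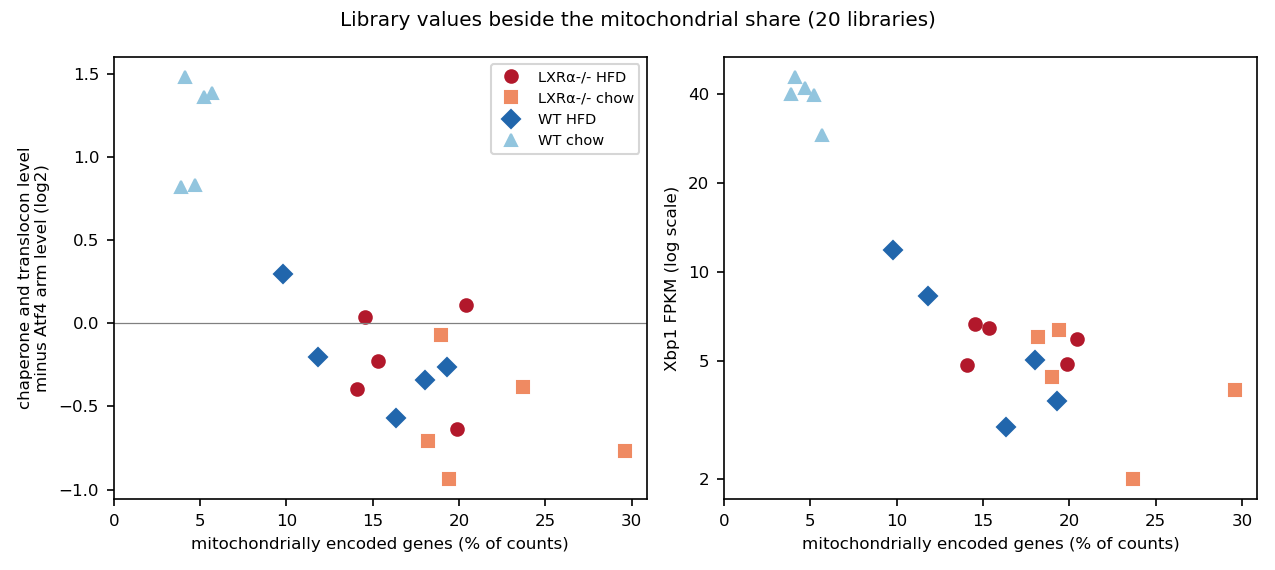
Chaperone and translocon level minus Atf4 arm level (left, log2) and Xbp1 FPKM (right, log axis) against the percentage of counts in mitochondrially encoded genes, 1 point per library. The WT chow libraries, at 3.89% to 5.67%, share no part of the horizontal range with the other 15. The library of lowest share has the highest Xbp1 in WT HFD and the lowest in labelled LXRα-/- HFD. Libraries 1 and 5 of labelled LXRα-/- chow and library 3 of WT chow, of highest share in their groups, have the lowest Xbp1 there. In each group the library at the other end of the share has neither the highest nor the lowest Xbp1.

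In the Atf4 arm, Atf4 had 87.6, 60.7, 86.4, 64.3 and 57.5 FPKM in labelled LXRα-/- HFD, 52.5, 88.5, 66.0, 57.5 and 57.0 in labelled LXRα-/- chow and 56.3, 63.8, 65.9, 70.0 and 62.8 in WT HFD, against 30.3, 45.7, 27.5, 35 and 24.9 FPKM in WT chow. Atf4 encodes the factor translated under PERK and related kinases. All WT chow libraries were below the other 15, which overlapped. The log2 fold change of labelled LXRα-/- over WT on chow was 0.94 (SE 0.17, edgeR adjusted p = 0.000189). Ddit3 had 8.21, 4.22, 10.2, 8.77 and 11.1 FPKM in labelled LXRα-/- HFD, 11.7, 9.23, 9.40, 4.57 and 7.29 in labelled LXRα-/- chow and 6.14, 3.31, 6.68, 9.26 and 4.53 in WT HFD, against 2.37, 4.92, 2.77, 2.70 and 1.72 FPKM in WT chow. WT chow library 2 lay within the range of the other groups, and the other 4 WT chow libraries were below all of them. The log2 fold change of Ddit3 on chow was 1.52 (SE 0.32, edgeR adjusted p = 0.000737). Ddit3 overlaps Mars on the opposite strand, and Mars had a mean of 4136 counts against 1137 for Ddit3, so part of the Ddit3 counts may belong to Mars.

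Trib3 encodes a pseudokinase induced by ATF4 and CHOP. Trib3 had 3.28, 3.01, 2.66, 2.67 and 2.56 FPKM in labelled LXRα-/- HFD, 2.68, 2.86, 4.65, 2.63 and 2.56 in labelled LXRα-/- chow and 2.0, 2.60, 2.33, 2.71 and 4.22 in WT HFD, against 2.64, 2.52, 2.75, 0.999 and 2.79 FPKM in WT chow. The groups overlapped, 1 library was low in WT chow, and the log2 fold change on chow was 0.39 (SE 0.24, edgeR adjusted p = 0.207). Ppp1r15a encodes GADD34, which reverses the translational block set by PERK. Ppp1r15a had 5.50, 4.49, 5.70, 3.75 and 2.99 FPKM in labelled LXRα-/- HFD, 4.51, 8.70, 6.22, 5.60 and 10.9 in labelled LXRα-/- chow and 8.35, 5.95, 6.24, 6.27 and 5.0 in WT HFD, against 3.83, 4.18, 4.53, 4.78 and 5.2 FPKM in WT chow. Labelled LXRα-/- chow ran highest and overlapped with WT chow in library 1. Its log2 fold change on chow was 0.66 (SE 0.24, edgeR adjusted p = 0.0312), and without labelled LXRα-/- chow library 5 it was 0.38 (edgeR adjusted p = 0.156). Labelled LXRα-/- HFD overlapped with WT chow for Ppp1r15a, which it did not for Atf4.

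On HFD no member differed between labelled LXRα-/- and WT livers at the threshold. By edgeR's quasi-likelihood test 0 of 41 genes rose, against a background of 0.254% of tested genes, and 0 fell, against 0.201%. At an unadjusted p under 0.05 there were 7 of 41 genes, against 14.2% of all tested genes, and DESeq2 called 1 of 41, against 2.81%. Both shares are close to those of all genes. The DESeq2 call was Manf, whose log2 fold change by edgeR was -1.21 (SE 0.35, edgeR adjusted p = 0.13). Manf overlaps Rbm15b on the same strand and Dcaf1 on the opposite strand, with means of 1399 and 673 counts against 8703 for Manf. Part of the Manf counts may therefore belong to these genes. Manf had 13.9, 13.2, 12.2, 15.0 and 16.8 FPKM in labelled LXRα-/- HFD and 51.7, 25.2, 26.8, 24.3 and 14.1 FPKM in WT HFD. Only WT HFD library 5 lay within the labelled LXRα-/- range. The other 6 genes at an unadjusted p under 0.05 were Edem1, Ppp1r15a, Sel1l, Ssr2, Sil1 and Derl1, all lower in labelled LXRα-/-, with log2 fold changes of -0.97, -0.73, -0.71, -0.87, -0.44 and -0.33. The median over the 41 genes was -0.24, and over all tested genes 0.03.

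Diet within labelled LXRα-/- gave no call among the 41 genes. By edgeR's quasi-likelihood test 0 rose, against 0.0159% of all tested genes, and 0 fell, against 0.0%, and DESeq2 called 0, against 0.349%. Ppp1r15a alone had an unadjusted p under 0.05, which 6.76% of all tested genes had, with a log2 fold change of HFD over chow of -0.85 (SE 0.24, edgeR adjusted p = 0.482). The medians were 0.08 for the 41 genes and -0.01 for all tested genes. The estimates of Xbp1, Hspa5 and Atf4 were 0.23 (SE 0.31), 0.12 (SE 0.65) and 0.01 (SE 0.17).

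In WT livers more of the 41 genes fell than rose on HFD relative to chow. Of the 41 genes 15 fell, against 15.0% of all tested genes, and 3 rose, against 14.3%, by edgeR's quasi-likelihood test. This comparison uses the same WT chow libraries as the comparison of genotypes on chow, so the 2 sets of values are not independent. Chaperones fell in 7 of 17 cases, ERAD genes fell in 4 and rose in 1 of 7, and sensors and factors fell in 4 of 5. No translocon gene passed. The values of HFD over chow in WT stood at -2.59 for Xbp1, -2.25 for Hyou1, -1.96 for Edem1, -1.65 for Herpud1, -1.57 for Pdia6 and -1.2 for Eif2ak3 on the log2 scale, and at 1.0 for Atf4 and 1.08 for Ddit3. Derl2, the gene that rose among the ERAD genes, had 11.4 to 14.2 FPKM in WT HFD and 6.29 to 9.28 FPKM in WT chow, with no overlap (log2 fold change 0.74, SE 0.23, edgeR adjusted p = 0.0181). Derl1 changed by -0.77 (SE 0.16, edgeR adjusted p = 0.00106). With the mitochondrial share as a covariate, Xbp1 (-1.82), Eif2ak3 (-1.76) and Atf4 (1.07) were the 3 genes still called, all 18 keeping their sign, and 3.45% of all tested genes rose and 4.29% fell. The clock level, the mean log2 level of Arntl and Npas2 minus that of Dbp and Per3, was -3.97 to 0.53 in WT HFD and -6.58 to -4.74 in WT chow. With it as a covariate 7 genes fell, among them Xbp1 and Edem1, against 5.5% of all tested genes, and none rose, against 4.82%.

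**Figure D4:**
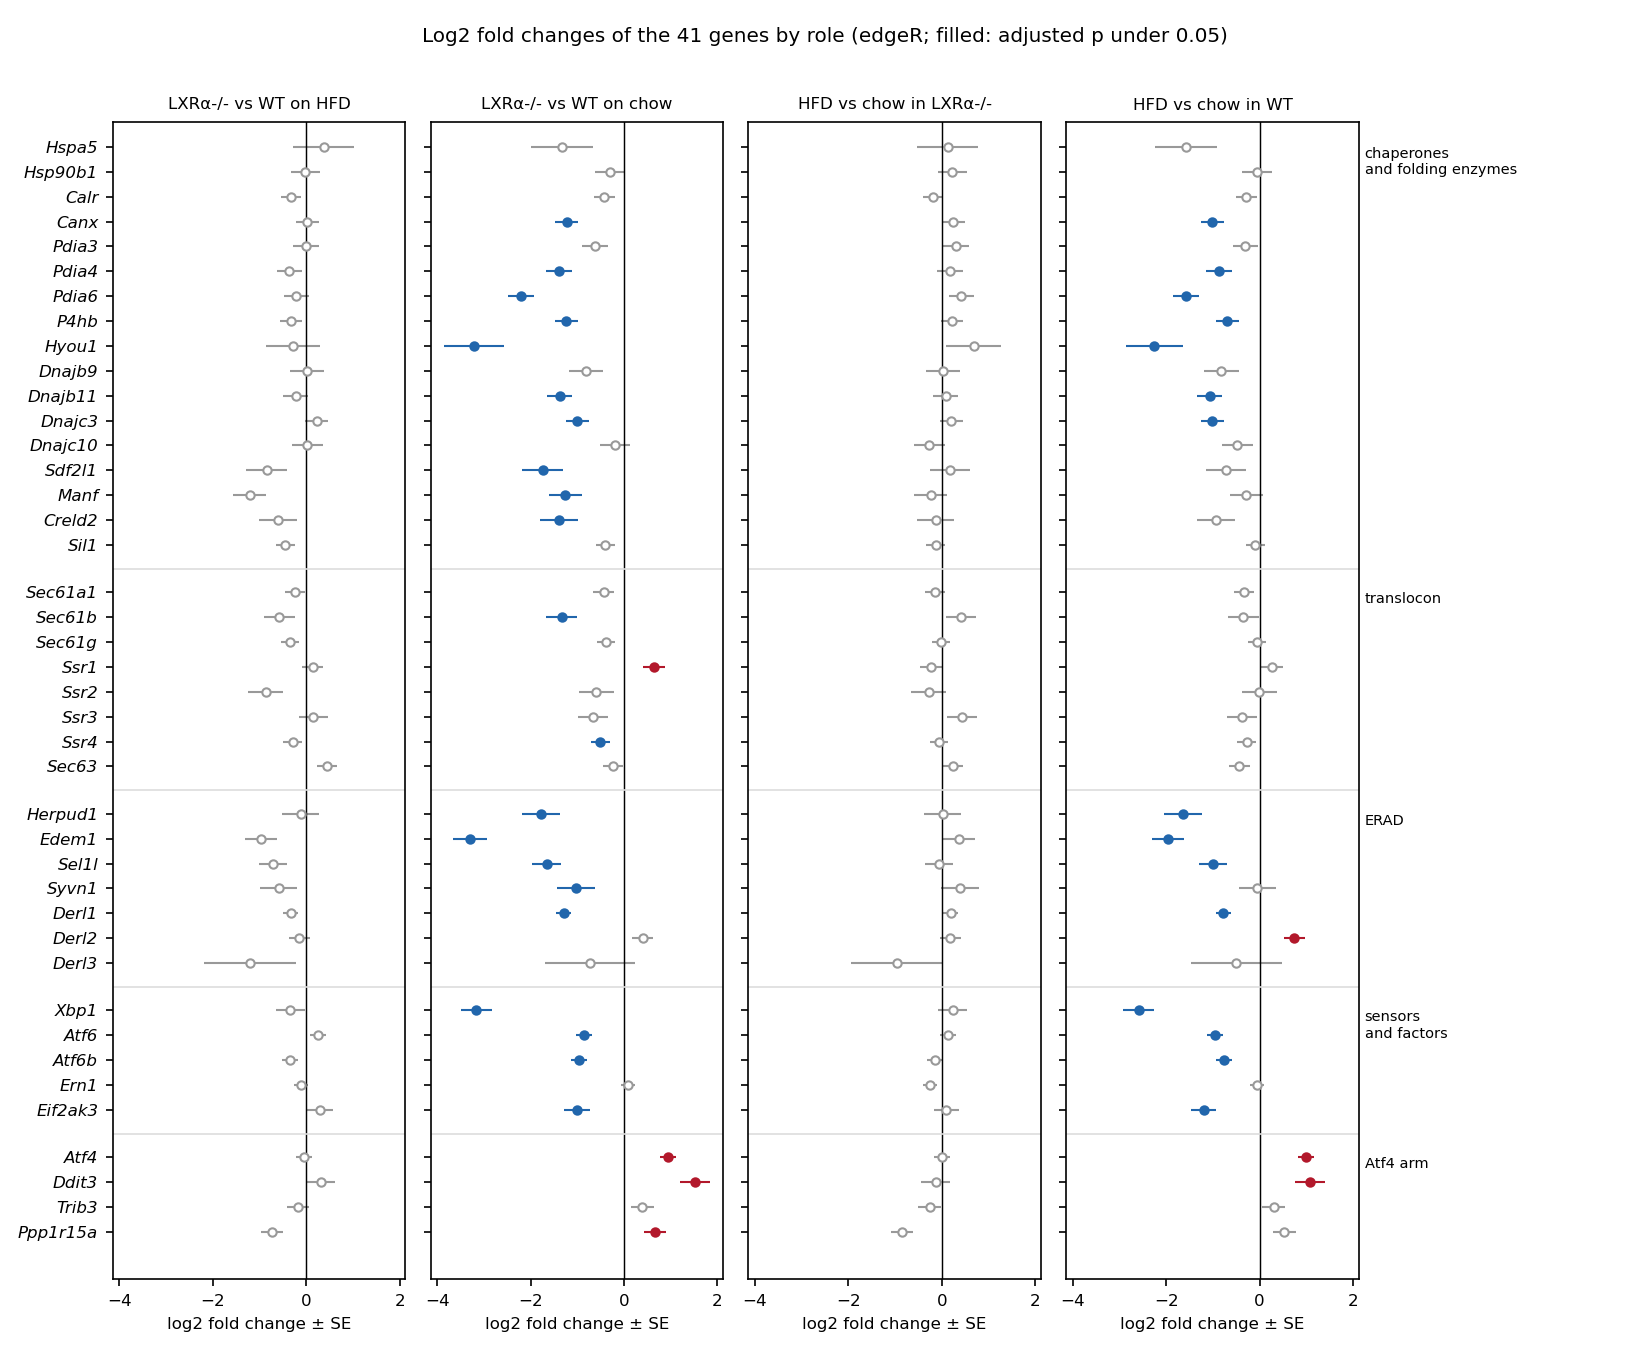
Log2 fold change with its SE for the 41 genes, ordered by role, in the 4 comparisons between groups; filled points passed an edgeR adjusted p of 0.05 (blue lower, red higher). Calls stand in the 2 panels that use WT chow, 25 for genotype on chow and 18 for diet in WT, and none in the other 2.

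The test of the difference between differences asked whether the genotype effect depended on diet. It was positive, with a less negative or higher value on HFD than on chow, in 11 of 41 genes, against 10.2% of all tested genes, and negative in 2, against 9.12%, by edgeR's quasi-likelihood test. The 11 genes were 5 chaperones (Hyou1, Pdia6, Canx, Dnajc3 and Dnajb11), 3 ERAD genes (Edem1, Herpud1 and Derl1) and 3 sensors and factors (Xbp1, Eif2ak3 and Atf6). Xbp1 had the smallest adjusted p among them, with an interaction of 2.82 (SE 0.44, edgeR adjusted p = 0.000269). Hyou1 had one of 2.93 (SE 0.85, edgeR adjusted p = 0.0192), which was 1.95 and no longer called (edgeR adjusted p = 0.059) without labelled LXRα-/- HFD library 5, where Hyou1 was highest. The 2 negative ones were Ppp1r15a, at -1.39 (SE 0.34, edgeR adjusted p = 0.00701), and Atf4, at -0.99 (SE 0.24, edgeR adjusted p = 0.00629). Of the 20 repeats that each left out 1 library, Herpud1 lost its call in 11 and Dnajb11 in 9. With the mitochondrial share as a covariate none of the 13 passed, and all kept their sign. In that fit 0.249% of all tested genes were positive and 0.153% negative. With the clock level as a covariate Xbp1 (3.24) and Edem1 (2.73) were the 2 still called, where 2.01% of all tested genes were positive and 1.88% negative.

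The wider pathway was read from lists of other genes, whose counts stand against 21.0% of all tested genes that fell and 22.3% that rose on chow. Of 25 tested other folding genes, 9 fell and 5 rose in labelled LXRα-/- on chow, among them Sdf4, an ER and Golgi calcium binder (log2 fold change -2.24), Prkcsh, the beta subunit of glucosidase II (-1.56), and the proline isomerase Fkbp2 (0.66). Of 23 other ERAD genes 12 fell and 3 rose, among them Nploc4 (-1.59) and Vcp (-1.48), which together extract substrates from the membrane. Of 27 other genes of translocation and N-glycosylation 16 fell and 3 rose, among them the signal peptidase subunit Spcs1 (-3.52), the oligosaccharyltransferase subunit Rpn2 (-2.11) and the signal recognition receptor Srpr (-2.0). For diet in WT the same 3 lists gave 6, 8 and 13 falls and 4, 4 and 1 rises, where 15.0% of all tested genes fell and 14.3% rose.

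Known targets of ATF4 and CHOP were called in both directions. Of 29 tested, 5 rose and 9 fell in labelled LXRα-/- on chow, against 22.3% and 21.0% of all tested genes. On HFD in WT 7 rose and 3 fell, against 14.3% and 15.0%. Fgf21, a hormone of hepatocytes, had log2 fold changes of 1.58 on chow and 4.10 for diet in WT, and the lipoprotein receptor gene Vldlr 4.44 and 3.98. Gars, the glycyl-tRNA synthetase gene, had -1.04 and -0.72. The median log2 fold change of the list was -0.04 on chow and -0.08 for diet in WT, against 0.80 and 0.77 for the 4 Atf4 arm genes.

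Markers of some other cell types differed between the same groups, and their part in the results was not tested. Counts of called markers on chow stand against 21.0% of all tested genes that fell and 22.3% that rose. For diet in WT these shares were 15.0% and 14.3%. Of 12 Kupffer cell genes 8 fell in labelled LXRα-/- on chow, and their summed level was 102 to 164 CPM in labelled LXRα-/- HFD, 124 to 279 in labelled LXRα-/- chow, 161 to 229 in WT HFD and 300 to 511 in WT chow. Of 16 tested B and plasma cell genes 11 rose and 1 fell on chow, and 14 rose and 1 fell for diet in WT. Their summed level was 288 to 428 CPM in labelled LXRα-/- HFD, 289 to 588 in labelled LXRα-/- chow, 292 to 1621 in WT HFD and 261 to 408 in WT chow. Of 15 hepatocyte genes 7 fell and 1 rose on chow, and the summed level overlapped between labelled LXRα-/- chow, at 64896 to 156856 CPM, and WT chow, at 102828 to 147216 CPM. Of 8 endothelial genes 3 fell and 1 rose on chow, of 7 stellate cell genes 1 fell and 2 rose, and of 5 cholangiocyte genes none passed by edgeR's quasi-likelihood test. The summed levels of the endothelial genes and of the stellate cell genes overlapped between all groups. The summed level of the 6 adipocyte genes was 15.2 to 370 CPM in labelled LXRα-/- HFD, 2.83 to 99.3 in labelled LXRα-/- chow, 6.10 to 116 in WT HFD and 2.58 to 21.9 in WT chow. Among them Cfd was called higher on chow, at 4.38 (SE 1.16), and for diet in WT, at 4.2 (SE 1.16). Of 7 exocrine pancreas genes, markers of another tissue rich in ER, Prss2 and Cpa1 were at 0 in all libraries and Cela1 was at 10.2 to 52.0 CPM. Cela2a, at no more than 1.41 CPM, fell on chow by 3.07 on the log2 scale (SE 1.10, edgeR adjusted p = 0.0294).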

How the data were processed

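Liver RNA of 20 libraries was compared, 5 in each of 4 groups taken from the sample titles. The labels give neither the animal behind a library nor a batch, so p-values measure the spread between libraries. The deposited table holds whole-number counts per gene, per the file headers, and beside them FPKM, which the authors scaled to gene length and library size. StringTie 1.3.0, HISAT2 2.0, Bowtie 0.12.2 and the build mm8 are named in the submitters' processing notes. The starts of all 41 genes match GRCm38, and coordinates of promoters are those of RefSeq on GRCm38.p6. How reads were counted over overlapping genes is not given in the sources used here.

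The counts were fitted with edgeR 4.0.16 in R 4.3.3 (filterByExpr, TMM factors, quasi-likelihood F test, 1 mean per group). All tests were two-sided, and p-values were adjusted by Benjamini-Hochberg over the 18905 genes that passed the filter, with a threshold of 0.05. SEs were derived from the F statistic. FPKM levels are per library total, so they carry no TMM factor. Depth was 75549139 to 108889938 counts per library, and what limits precision was not tested. The procedure was tested on simulated counts. The members, roles and gene lists were chosen with earlier results of these data known. All members could be named, with every library's value for a set named by rule, and per list the 3 genes of smallest p. Manf, Derl2, P4hb, Calr and Ern1 were given further values after theirs were seen.

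Alternatives were DESeq2 1.42.0, limma 3.58.1 on log2(FPKM + 1) and log2(FPKM + 0.1), other scalings and filters, the groups compared alone, the replicate number as a block, the mitochondrial share or clock level as a covariate, and leaving out each library. Leaving out mitochondrially encoded genes was added after seeing the data. One gene of a list, Hm13, was not analysed here.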

Additional observations from a re-analysis of the deposited data

Results flagged for a closer look

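Of the 164 combinations of a gene and a group, 15 had 1 library far from the other 4, by a rule that flags about 1 in 20 groups by chance. In labelled LXRα-/- HFD, library 3 was far below the rest for P4hb (253 FPKM), Sec61b (11.2 FPKM), Derl1 (17.1 FPKM) and Derl3 (0.17 FPKM), library 4 for Ssr2 (8.35 FPKM), and library 5 was far above for Dnajb11 (16.3 FPKM). In labelled LXRα-/- chow, library 1 was far below the rest for Dnajb11 (5.29 FPKM), Ssr3 (7.54 FPKM) and Sec63 (3.23 FPKM), library 2 for Hspa5 (7.26 FPKM) and library 5 for Syvn1 (2.07 FPKM), while library 3 was far above for Trib3 (4.65 FPKM). Library 1 of that group also had the highest mitochondrial share of all 20, at 29.6%. In WT HFD, library 2 was far below the rest for Dnajc10 (1.76 FPKM). In WT chow, library 1 was far below the rest for P4hb (608 FPKM) and library 4 for Trib3 (0.999 FPKM).

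For 13 genes the genotype difference on HFD differed from that on chow by edgeR's interaction test at an adjusted p under 0.05. The difference on the log2 scale was 2.93 for Hyou1, 2.82 for Xbp1, 2.32 for Edem1, 1.99 for Pdia6, 1.66 for Herpud1, 1.3 for Eif2ak3, 1.25 for Canx, 1.22 for Dnajc3, 1.15 for Dnajb11, 1.10 for Atf6 and 0.96 for Derl1. It was -0.99 for Atf4 and -1.39 for Ppp1r15a. Of all tested genes 10.2% were positive and 9.12% negative in this test. With the mitochondrial share as a covariate none of the 13 genes passed.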

How the results depend on the processing

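The counts of genes called and the gaps between the chaperone and translocon genes and the Atf4 arm were recomputed under each alternative. With the mitochondrial share as a covariate, genotype on chow gave 0 rises, 0 falls and a gap of -0.81. Diet in WT gave 1 rise, 2 falls and a gap of -0.69, and the interaction 0 positive and 0 negative calls and a gap of 0.76. Of all tested genes, 0.339% rose and 0.624% fell for genotype on chow, and 3.45% rose and 4.29% fell for diet in WT. The interaction was positive in 0.249% and negative in 0.153% of them. In that fit the genotype estimates on chow of Sec61b, at 0.45, and Ssr4, at 0.24, reversed sign without being called. The share does not overlap between WT chow and the rest, so the fit has little to separate them by. With the clock level as a covariate, genotype on chow gave 2 rises, against 3701 of all 18905 tested genes. Of the falls on chow only that of Ssr4 lost its call in that fit, where 3470 of all tested genes fell. Diet in WT gave 0 rises and 7 falls, against 4.82% and 5.5% of all tested genes. The interaction gave 2 positive and 0 negative calls, against 2.01% and 1.88%. DESeq2 called 1 fall on HFD, against 236 of 18905 tested genes. Fitting only the groups compared gave 2 rises on chow, against 3484 of 17291 tested genes. The cause was not tested. Leaving out mitochondrially encoded genes, the other scalings and filters and limma on FPKM kept these counts within 1.5 times.

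Leaving out 1 library at a time gave 2 to 5 rises, 19 to 23 falls and a gap of -1.90 to -1.35 for genotype on chow. Of the 19190 to 19361 genes tested in these repeats, 3770 to 4268 rose and 3617 to 4022 fell on chow. For diet in WT the repeats gave 2 to 4 rises, 13 to 19 falls and a gap of -1.42 to -1.10. Of all tested genes 2278 to 2802 rose and 2377 to 2973 fell there. For the interaction the repeats gave 8 to 15 positive and 2 to 3 negative calls and a gap of 1.59 to 2.01. Of all tested genes 1621 to 2129 were positive and 1423 to 2017 negative. On HFD and for diet in labelled LXRα-/- the repeats gave 0 calls, with gaps of -0.32 to 0.10 and of 0.16 to 0.45. All tested genes gave 18 to 65 rises and 11 to 60 falls on HFD. The 2 rises on chow came without labelled LXRα-/- chow library 2, without its library 5 or without WT chow library 1. Of the calls, 21 of 25 on chow, 15 of 18 for diet in WT and 10 of 13 for the interaction passed without each library. Those lost were of Ssr4, Syvn1, Ssr1 and Ppp1r15a, of P4hb, Pdia4 and Ddit3, and of Herpud1, Dnajb11 and Hyou1. Pdia4 for diet in WT was -0.55 without WT chow library 2, against -0.87. Derl3 for diet in WT was -2.94 (edgeR adjusted p = 0.0152) without WT HFD library 1, against -0.50.

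Replicate numbers did not pair the samples, with correlations of -0.113 to 0.078 between same-numbered libraries, and 2, 3, 0 and 0 of 10 libraries correlating best with their own number. With the replicate number as a block, genotype on chow gave 3 rises and 20 falls, against 3986 and 3832 of all 18905 tested genes. Diet in WT gave 3 rises and 15 falls, against 2542 and 2639 of them. The interaction gave 9 positive and 2 negative calls, against 1757 and 1558.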

Other observations

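Transport between the ER and the Golgi carries folded proteins onward. Of 20 tested genes of this transport, 9 fell and 1 rose in labelled LXRα-/- on chow, against 21.0% and 22.3% of all tested genes, by edgeR's quasi-likelihood test. On HFD in WT 10 fell and 1 rose, against 15.0% and 14.3%. The COPII coat genes Sec24d and Sec13 had log2 fold changes of -2.40 (SE 0.23) and -1.89 (SE 0.20) for genotype on chow, and -1.63 (SE 0.22) and -1.16 (SE 0.20) for diet in WT. Sec24a, which encodes another form of the cargo-binding coat protein, had 1.45 (SE 0.20) and 1.03 (SE 0.20). The coat genes of this family thus differed in direction within the same libraries.

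Of 19 tested other regulators of the response, 10 fell and 7 rose on chow, and 7 fell and 4 rose for diet in WT, beside the same shares of all tested genes. Creb3, a transcription factor of the ER membrane, had -1.36 (SE 0.11) and -1.06 (SE 0.11). Bax, a promoter of cell death known to bind IRE1, had 1.21 (SE 0.17) in both comparisons. Eif2ak2, the kinase PKR that acts on the same translation factor as PERK, had 1.86 (SE 0.24) and 1.39 (SE 0.23), so it was higher where Eif2ak3 was lower. Both comparisons share the WT chow libraries.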
